A study of Rattus norvegicus with 6 samples.

Results

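In cultured rat microglia, 129499 chromatin regions were counted. Of these, 2886 (2.23%) had a listed hotspot of DNase I cutting in both untreated libraries and in none of the 4 from stimulated cultures. They were chosen by the deposited hotspot lists: each overlapped by at least 1 bp a hotspot, a stretch with an excess of DNase I cuts, in both untreated lists and in neither LPS list nor GCM list. They made up 3.34% of the 86342 regions with hotspots in both untreated lists and covered 548.4 kb on 21 chromosomes of build rn5. Because the lists come from the same libraries as the counts, lower counts after stimulation were part of the choice. Values of LPS or GCM against untreated cultures are therefore a description of these regions, and nothing rests on their direction. The choice also took out regions with a hotspot after 1 stimulus alone, which limits how far GCM and LPS can differ in those kept. The values of neighbouring regions were not part of the choice, but they come from the same libraries and may not be independent of it.

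Microglia, the macrophages of the brain, were cultured from 1-day-old Wistar rats, with 10 to 15 pups pooled per culture. All cultures were grown for 2 weeks and rested for 48 h. They were then left untreated, given 100 ng/mL lipopolysaccharide (LPS, a bacterial cell wall component, here from Salmonella enteritidis) for 6 h, or given medium conditioned for 24 h by C6 rat glioma cells (glioma-conditioned medium, GCM) for 6 h. Each of the 3 groups had 2 independent cultures, and the untreated cultures received neither agent. The comparisons ask which chromatin regions change in inflammatory or in glioma-induced activation. In these bulk libraries, fewer cells with an open region and less cutting per cell cannot be told apart, and the labelled cell type was not checked against marker genes here.

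DNase I cuts DNA preferentially where nucleosomes are absent or displaced, as at active promoters and enhancers. In macrophages and microglia, lineage-determining factors such as PU.1 keep a basal set of enhancers open. Toll-like receptor 4 signalling, which LPS triggers, activates factors such as NF-kB and AP-1 that open further enhancers, while parts of the basal set lose accessibility. Glioma cells release factors that push microglia towards a state that favours tumour invasion.

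The libraries held 60.1 M to 120.5 M reads, of which 7.14 M to 12.4 M counts fell in the counted regions. The second GCM library had the most reads and the lowest cutting density in regions with hotspots in all 6 lists, at 5.56 times the density of DNA outside counted regions, against 6.26 to 8.15 times in the other 5. Differences between replicates over all regions were near counting error (chi-square per degree of freedom 0.975 untreated, 1.24 LPS, 1.29 GCM). They exceeded it in sums per chromosome (16.0, 87.2 and 15.0). In the chosen regions the values were 0.432 untreated, 0.784 LPS and 0.786 GCM. The same libraries chose these regions, so nothing is read from the lower values.

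The counts behind these regions were low. Per region, the median count in replicates 1 and 2 was 24 and 19 for untreated, 14 and 17 for LPS, and 11 and 19 for GCM libraries. Both untreated medians were at or above each stimulated one, which the choice favours. The second LPS and the second GCM library were sequenced more deeply than both untreated libraries. The highest count of any of the 2886 regions was 81 and 65 in untreated, 59 and 85 in LPS and 36 and 71 in GCM libraries. Between 37 and 114 regions per library had a count of 0, which allows up to 3 counts, and 18 regions had no count in any library.

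Levels are given as CPM, that is, counts scaled by the TMM method to a library's total in regions. The median level was 2.15 and 2.66 CPM in the 2 untreated, 1.42 and 1.39 CPM in the 2 LPS, and 1.35 and 1.56 CPM in the 2 GCM libraries. Both untreated medians lay above all stimulated ones, which follows from the choice, while the LPS and GCM medians overlapped. The share of counts in these regions was 0.619% and 0.746% in untreated, 0.409% and 0.416% in LPS, and 0.384% and 0.456% in GCM libraries. The second untreated library was above the first in 2365 regions (81.9%), with a median ratio of 1.21.

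Cutting density sets these counts against the DNA between counted regions of the same library. In the 2886 regions, counts per kb were 4.23 and 4.75 times those of DNA outside all counted regions in untreated libraries. With LPS they were 2.94 and 2.96 times that density, and with GCM 3.17 and 2.62 times. The stimulated libraries thus kept cutting above the genome-wide average of DNA outside counted regions, although no hotspot was listed there. The outside density is approximate, since sequence to which reads cannot be mapped lowers it.

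The 7283 regions with hotspots in both LPS lists alone stood at 2.89 and 2.68 times the outside density in untreated, 5.11 and 4.95 in LPS, and 3.16 and 2.58 in GCM libraries. The 2468 regions with hotspots in both GCM lists alone stood at 3.10 and 3.00 in untreated, 3.17 and 3.04 in LPS, and 5.29 and 4.04 in GCM libraries. Each class was thus between 2.58 and 3.17 times the outside density in the libraries that lacked its hotspots. In the libraries that chose them, untreated-only regions reached 4.75 times at most, and LPS-only regions 5.11 times.

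**Figure D1:**
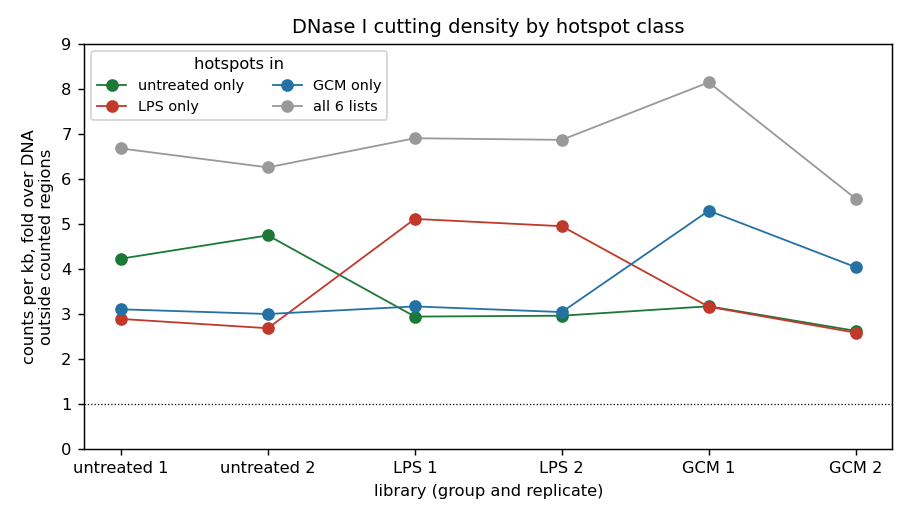
Cutting density of 4 hotspot classes in each of the 6 libraries, as counts per kb divided by counts per kb of DNA outside counted regions (vertical axis, linear from 0; the dotted line is equal density). The untreated-only regions sit at 4.23 and 4.75 in the untreated libraries and between 2.62 and 3.17 in the 4 stimulated ones, while the regions with hotspots in all 6 lists sit at 5.56 or above throughout.

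The regions were weak already in untreated cultures. Ranked by the authors' hotspot score within a list, the hotspots behind them had a median percentile of 28.9 in the first untreated list and 18.3 in the second. Hotspots behind regions present in all 6 lists had median percentiles of 78.7 and 67.2. In the first list 402 of the 2886 regions lay above the median score, in the second list 64, and in both lists 16. Their median untreated level was 2.43 CPM, against 9.03 CPM for regions present in all 6 lists. Per kb, the median untreated level was 12.2 CPM against 16.5 CPM.

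The choice had an edge that the counts do not show as sharply. The 3162 regions just outside it, with hotspots in both untreated lists and in exactly 1 of the 4 stimulated lists, had median levels of 2.80 CPM untreated, 1.87 CPM with LPS and 1.95 CPM with GCM. The 2886 regions inside it had 2.43, 1.43 and 1.45 CPM. The single stimulated hotspot was in the second LPS list for 1073 of the outside regions, in the second GCM list for 820, in the first LPS list for 657 and in the first GCM list for 612. If only the first LPS and GCM lists had been required to lack a hotspot, 5661 regions would have qualified, of which 51.0% were among the 2886. With only the second lists it would have been 4580 regions, of which 63.0% were among them. A stimulated hotspot lay within 150 bp of 437 regions (15.1%), and the median distance to the nearest one was 1137.5 bp.

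Lower accessibility after both stimuli was measured in nearly all regions with enough counts, which follows from the choice. Counts were tested with the quasi-likelihood test of edgeR over all regions that passed its low-count filter, 126284 in all, of which 2387 were untreated-only regions. The other 499 did not pass, and passing favoured regions with high untreated counts. The log2 fold change with LPS had a median of -0.70 (quartiles -0.90 and -0.51, range -2.44 to 0.38), a 1.62-fold lower level. With GCM the median was -0.65 (quartiles -0.84 and -0.47, range -2.06 to 0.46), a 1.57-fold lower level. The median over all tested regions was -0.00 in both comparisons. The log2 change was below 0 in 2372 regions with LPS, in 2365 with GCM and in 2353 with both.

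Errors of single regions were wide. The median SE of a single region's log2 change was 0.30 in both comparisons. The log2 change was below -1, a level lower than 2-fold, in 353 regions with LPS, in 297 with GCM and in 107 with both. Both LPS libraries were below both untreated libraries in 2152 of the 2387 tested regions (90.2%), beside 26.3% of all tested regions. Both GCM libraries were below both untreated ones in 2109 (88.4%), beside 22.4% of all. All 4 stimulated libraries were below both untreated ones in 1976 (82.8%), beside 12.3% of all, and in 2143 of all 2886 regions.

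At an adjusted p under 0.05 (edgeR, Benjamini-Hochberg), 547 of the 2387 regions (22.9%) were called lower with LPS, beside 3.14% of all tested regions. With GCM 111 (4.65%) were called lower, beside 0.231% of all. Of the 2387, 73 (3.06%) were called lower with both, beside 0.0958% of all. No region was called higher with LPS or GCM, where 6.71% and 1.34% of all tested regions were, and none was higher at an unadjusted p under 0.05 in edgeR or at an adjusted one in DESeq2. Nothing is read from these shares, since the same libraries chose the regions, and both comparisons share the untreated libraries.

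Leaving out a library of the group not compared raised the number of calls. Leaving out a library of either group compared lowered the number, over all tested regions as well as in these. For LPS it was 200 and 49 without the first or the second untreated library, beside 0.841% and 0.711% of all tested regions. Without the first or the second LPS library it was 197 and 184, beside 2.02% and 1.44% of all. For GCM it was 0 without either untreated library, where 0 and 1 of all tested regions were called lower. Without the first GCM library it was 28 of 104 such calls over all regions, and without the second 3 of 6. Calls for both stimuli fell without any 1 of the 6 libraries. Scaled to whole-library read totals, 211 regions were called lower with LPS and 43 with GCM, beside 0.543% and 0.0507% of all tested regions, and 22 with both. DESeq2 called 0, 0 and 0 of them, beside 67 lower with LPS and 0 with GCM over all regions, and gave an adjusted p for LPS to 1295 of them and for GCM to 2868. In the authors' deposited table, which lists 2476 of the 2886 regions, 513 were lower with LPS at an adjusted p under 0.05 (beside 3.33% of all listed) and 117 with GCM (beside 0.327%). The authors' deposited table gave median log2 changes of -0.71 with LPS and -0.67 with GCM.

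**Figure D2:**
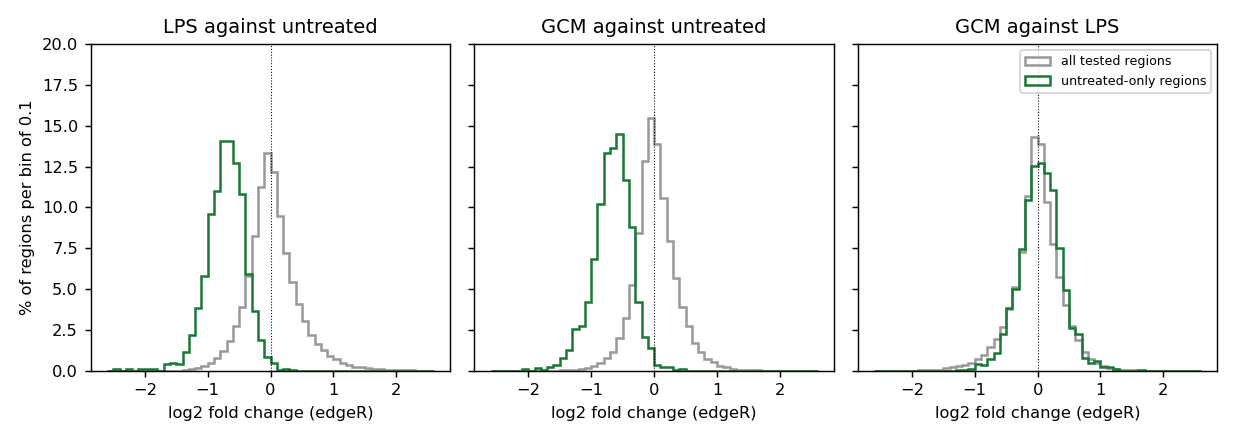
Distribution of log2 fold changes (edgeR; horizontal axis) as the percent of regions per bin of 0.1 (vertical axis), for the 2387 tested untreated-only regions (green) and all 126284 tested regions (grey), in 3 comparisons. The untreated-only regions centre on -0.70 with LPS and -0.65 with GCM, a shift that follows from how they were chosen, and on 0.04 for GCM against LPS, near the grey curve.

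Taking the larger of the p-values of both comparisons, the 10 regions that ranked first among those with all 4 stimulated libraries below both untreated ones lay on 9 chromosomes. They were ranked by p and not by fold, and with GCM the lowest log2 change, -2.06, was measured in a region outside the 10. The first was a 290 bp region at chr12:19047125-19047414. It had 5.55 and 6.45 CPM in untreated, 2.13 and 2.45 CPM in LPS, and 1.97 and 2.70 CPM in GCM libraries. All 4 stimulated libraries were below 3 CPM and both untreated ones above 5 CPM. Its log2 change was -1.35 ± 0.23 (SE, n = 2 per group) with LPS and -1.29 ± 0.23 with GCM, falls of 2.55-fold and 2.44-fold. The nearest counted region was 1203 bp away.

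An isolated example was the 202 bp region at chr20:25361836-25362037, with 49984 bp to the nearest counted region. Its values were 2.51 and 2.38 CPM untreated, 0.609 and 1.06 CPM with LPS, and 0.737 and 0.901 CPM with GCM. It was 2.83-fold lower with LPS and 2.91-fold lower with GCM. Still further from other regions, at 95.2 kb, the 378 bp region at chr17:9893350-9893727 had 5.46 and 5.05 CPM untreated, 2.95 and 2.61 CPM with LPS, and 2.46 and 2.70 CPM with GCM. In both regions the LPS and GCM libraries overlapped.

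The largest fold fall with LPS of any tested region was measured in the 117 bp region at chr8:109789747-109789863. It had 1.43 and 2.94 CPM in untreated libraries, which differed from each other more than the stimulated ones did. With LPS it had 0.406 and 0.326 CPM, and with GCM 0.614 and 0.655 CPM. The log2 change was -2.44 ± 0.44 with LPS and -1.64 ± 0.39 with GCM (SE, n = 2 per group). These levels rest on 4 counts in each LPS library, 5 and 8 counts in the GCM libraries, and 16 and 21 counts in the untreated ones.

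The 2 widest of the 10 had the smallest fold falls. The 497 bp region at chr15:44511235-44511731 went from 6.50 ± 0.325 CPM (SD, n = 2) untreated to 3.56 ± 0.421 CPM with LPS and 3.28 ± 0.232 CPM with GCM. The 513 bp region at chr5:81312100-81312612 went from 6.75 ± 0.559 CPM to 3.76 ± 0.00302 and 3.46 ± 0.551 CPM. Over the other 4 of the 10, on chromosomes 1, 2 and 7, untreated means ran from 1.70 to 3.96 CPM. Over all 10, the log2 changes ran from -2.44 to -0.83 with LPS and from -1.86 to -0.91 with GCM.

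All 10 were called lower with both stimuli by edgeR, which follows from ranking them by p. Their calls with GCM depended on single libraries: 0 of 10 were called without the first untreated, the second untreated or the second GCM library, and 4 of 10 without the first GCM library. With LPS, 6 and 7 of 10 were called without the first or the second untreated library. DESeq2 called 0 for LPS, of 6 that it gave an adjusted p, and 0 of 10 for GCM. The log2 change stayed below 0 for both stimuli in all 10 in these settings. That follows from taking regions with all 4 stimulated libraries below both untreated ones, so no stability is read from it.

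**Figure D3:**
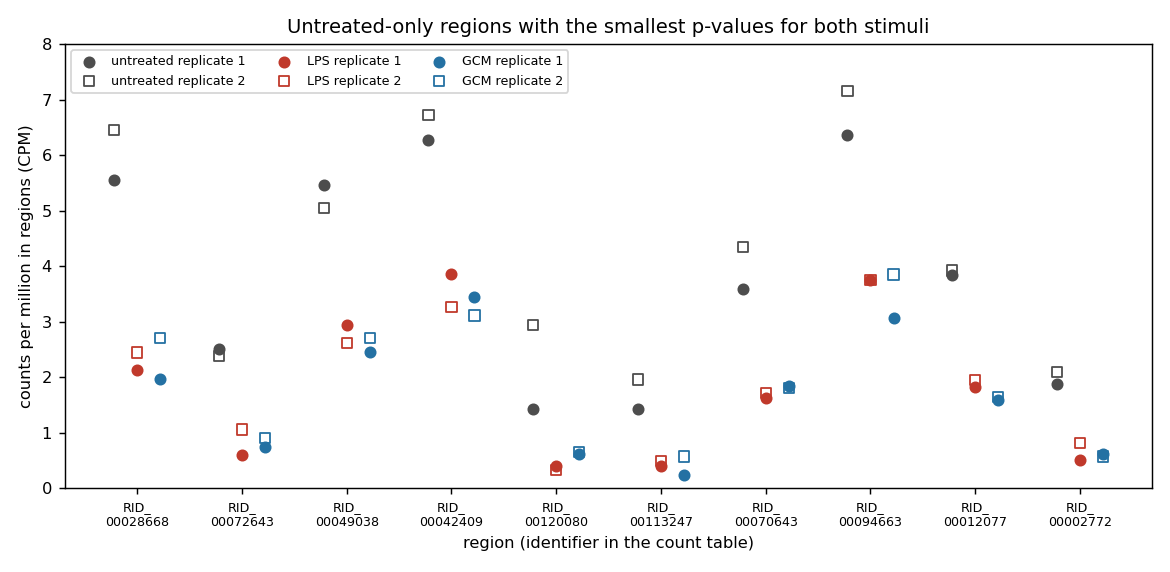
Level in CPM (vertical axis, linear from 0) of the 10 untreated-only regions with the smallest p-values for both stimuli, one column per region, with filled circles for replicate 1 and open squares for replicate 2. In each of the 10 columns, both untreated points (black) lie above all 4 stimulated points (red LPS, blue GCM), as the choice required.

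The regions with the highest untreated levels were also among the widest, at 522 to 640 bp. The region at chr8:48154402-48155040, the strongest, had 7.25 and 9.11 CPM untreated, 5.99 and 6.94 CPM with LPS, and 4.42 and 5.82 CPM with GCM. It kept over 5 CPM in 3 of the 4 stimulated libraries although no stimulated list held a hotspot there. The widest, at chr7:134323669-134324308, had 6.63 and 7.85 CPM untreated, 4.37 and 4.49 CPM with LPS, and 4.30 and 5.08 CPM with GCM.

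The other 3 of the 5 strongest regions differed in how the stimuli compared. On chromosome 13, the region at chr13:90934826-90935435 stood at 7.03 ± 0.955 CPM (SD, n = 2) untreated, 4.20 ± 0.520 CPM with LPS and 4.53 ± 0.667 CPM with GCM. On chromosome 4, the region at chr4:34370872-34371477 stood at 6.81 ± 1.27, 4.09 ± 0.247 and 3.91 ± 1.19 CPM. On chromosome 12, the region at chr12:590363-590884 stood at 6.82 ± 0.658, 4.48 ± 1.14 and 2.83 ± 0.522 CPM. Of these 3, the region on chromosome 12 was the one whose GCM mean lay below the LPS mean by more than either SD (adjusted p = 0.116 for GCM against LPS, edgeR).

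A few regions were no lower on average after a stimulus in spite of losing the hotspot. The log2 change was above 0 in 15 tested regions with LPS, in 22 with GCM and in 3 with both. The 5 named as the highest of these were 91 to 141 bp wide and had untreated means of 0.740 to 1.42 CPM. The 95 bp region at chr14:104145056-104145150 had 0.716 and 0.981 CPM untreated, 1.02 and 0.979 CPM with LPS, and 1.11 and 1.15 CPM with GCM. Its log2 change was 0.28 ± 0.41 with LPS and 0.46 ± 0.40 with GCM (SE, n = 2 per group), both within 2 SE of 0.

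The difference between GCM and LPS was limited by the choice, since regions with a hotspot after 1 stimulus alone were taken out. Regions just outside, with a single stimulated hotspot, had median GCM-to-LPS log2 differences of -0.14 and -0.17 where it was in the first or the second LPS list. The differences were 0.25 and 0.33 where it was in the first or the second GCM list. The values below are therefore a description, and nothing about the regions' response is read from a low number of calls. No region of the 2387 was called different between GCM and LPS (edgeR, smallest adjusted p = 0.0504), where 8.58% of all tested regions were. At an unadjusted p under 0.05, 66 (2.76%) differed, beside 22% of all tested regions. DESeq2 called 0 of the 930 to which it gave an adjusted p, beside 602 lower and 110 higher with GCM over all regions. Among the 32367 other tested regions with a mean count of up to 33.2, the 95th percentile of the untreated-only regions, edgeR called 9.60%, without matching of counts below that limit. Other scalings and filters each called 1 region, beside 4468 to 6044 lower and 961 to 4892 higher with GCM than with LPS over all tested regions.

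Within these limits, the GCM-to-LPS difference was spread about as widely as over all tested regions, but errors of single regions were larger. Like quartiles at unlike errors do not show that GCM and LPS levels lay equally near each other. The log2 difference over all tested regions had quartiles of -0.21 and 0.20, beside a median SE of 0.20. The median log2 difference in the untreated-only regions was 0.04, with quartiles of -0.16 and 0.25, beside a median SE of 0.32. It turned to -0.06 with whole-library totals and to -0.07 without the second GCM library, so it gave no stable direction. In 2092 regions (87.6%) the difference lay within 0.5 of 0, and the 5th and 95th percentiles were -0.50 and 0.60. GCM was above LPS in 1329 regions and below it in 1058. A p above the threshold does not show that a region responded alike to both stimuli.

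The 5 regions with the smallest p-values for GCM above LPS had GCM means between the LPS and the untreated means. The 233 bp region at chr12:4053985-4054217 had 2.33 and 2.38 CPM untreated, 1.02 and 0.979 CPM with LPS, and 1.72 and 2.29 CPM with GCM. Its GCM-to-LPS log2 difference was 1.04 ± 0.34 (SE, 2 libraries a group), with an adjusted p of 0.0504 in edgeR. The 406 bp region at chr14:75846651-75847056 had 4.03 and 5.19 CPM untreated, 1.83 and 1.96 CPM with LPS, and 3.07 and 3.44 CPM with GCM, a difference of 0.79 ± 0.26 (adjusted p = 0.0539, edgeR). In both, the 2 GCM libraries lay above the 2 LPS libraries and below the untreated ones. A second region on chromosome 14, at chr14:70372314-70372607, and regions at chr15:47542219-47542372 and chrX:78407905-78408055 had adjusted p-values of 0.0652, 0.0694 and 0.0739 (edgeR).

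In the opposite direction, the 240 bp region at chr3:10951358-10951597 had 3.13 and 3.08 CPM untreated, 2.54 and 2.12 CPM with LPS, and 0.614 and 1.56 CPM with GCM. Its GCM-to-LPS log2 difference was -0.96 ± 0.33 (SE, 2 libraries a group), with an adjusted p of 0.0639 in edgeR, and the GCM libraries lay below all others. The 206 bp region at chr8:36624233-36624438 had 1.79 and 2.52 CPM untreated, 1.42 and 1.47 CPM with LPS, and 0.737 and 0.655 CPM with GCM (adjusted p = 0.115, edgeR). None of these passed the threshold.

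Widths, counts and calls went together in these regions. The median width was 193 bp (quartiles 124 and 260, range 1 to 640), against 239 bp for LPS-only, 202 bp for GCM-only and 549 bp for regions present in all 6 lists. In all 2886 regions, both ends were those of the stretch shared by the hotspots of the 2 untreated lists, so the width depends on how far these overlap. The hotspots themselves had median widths of 316 bp and 289 bp in the first and second untreated lists. Of the 2886 regions, 251 (8.70%) were under 50 bp, with a median count of 3 and 2 in the untreated libraries, and 3 of these passed the low-count filter.

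The log2 changes varied less with width than the calls did. In tested regions of 50 to under 150 bp the median log2 change was -0.73 with LPS and -0.68 with GCM. In those of 250 bp or more it was -0.67 and -0.63. The share called lower with LPS was 8.33% in regions of 50 to under 150 bp, 21.8% in those of 150 to under 250 bp and 32.2% in those of 250 bp or more. Median untreated levels rose over the same classes from 1.24 to 2.48 and 3.60 CPM.

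Gaps to other counted regions were wider at the median than in the other classes, although 782 regions (27.1%) lay within 1 kb of one. The median gap to the nearest counted region was 3.57 kb (quartiles 0.865 and 12.4 kb), against 2.01 kb for LPS-only, 1.52 kb for GCM-only and 1.74 kb for regions present in all 6 lists. The median gap to the nearest region present in all 6 lists was 9.26 kb, against 4.24 kb for LPS-only and 3.35 kb for GCM-only regions. Gaps over 20 kb were found for 499 (17.3%) of the untreated-only regions, against 5.97% of LPS-only, 7.78% of GCM-only and 5.81% of all counted regions. The median number of other counted regions within 50 kb was 7, against 10 for both LPS-only and GCM-only regions. These differences are descriptions without a test, since regions along a chromosome are not replicates.

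**Figure D4:**
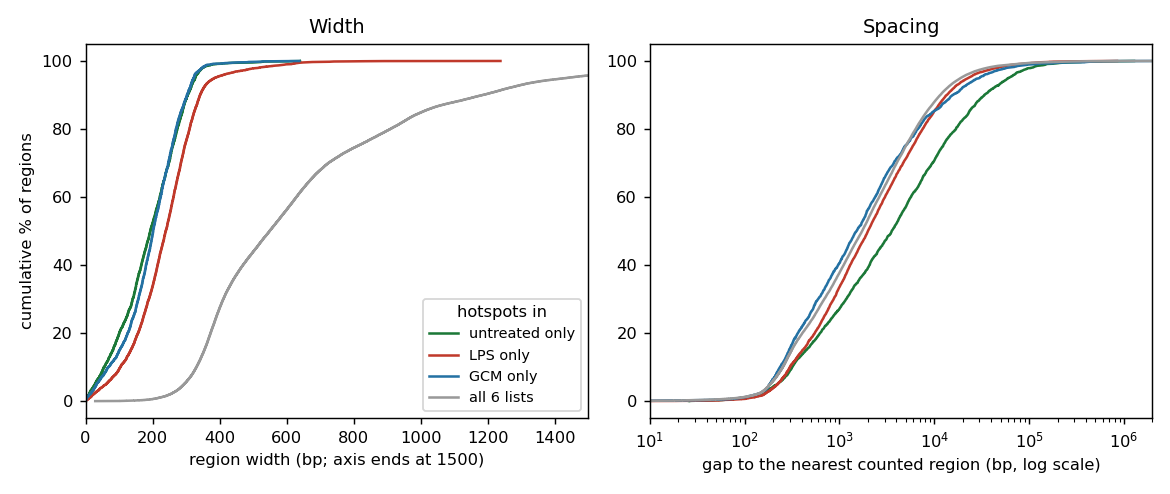
Cumulative percent of regions (vertical axes) by width in bp (left, linear axis that ends before the widest regions) and by gap to the nearest counted region in bp (right, log scale), for 4 hotspot classes. The untreated-only curve runs close to the GCM-only curve in width, with medians of 193 and 202 bp, and lies to the right of the other 3 over most of the spacing panel, with a median gap of 3.57 kb.

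Median stimulated levels were lower in isolated regions than in crowded ones. Within 1 kb of another counted region (782 regions, 623 tested) the median log2 change of tested regions was -0.61 with LPS and -0.59 with GCM. From 20 to 100 kb (438 regions, 367 tested) it was -0.80 with LPS and -0.72 with GCM. Median untreated levels were alike at these gaps, at 2.38 and 2.31 CPM. The median LPS level was 1.47 CPM in the close and 1.25 CPM in the distant regions, and the median GCM level was 1.51 and 1.29 CPM. Beyond 100 kb (61 regions, 54 tested) the median log2 change was -0.78 with LPS and -0.75 with GCM, at a median untreated level of 2.11 CPM.

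Gaps between untreated-only regions depend on their number, 2.23% of all counted regions, and were not set beside those of another class. The median gap from one to the next nearest was 196 kb (quartiles 71.9 and 427 kb). Within 10 kb of another lay 207 (7.17%), in 99 runs, of which the longest had 4 regions. There were 50 pairs under 2 kb apart. The closest, separated by 157 bp, were at chr19:33925598-33925729 and chr19:33925887-33926168. The first of that pair had 1.43 and 1.54 CPM untreated, 0.711 and 1.14 CPM with LPS, and 0.614 and 1.15 CPM with GCM. The second had 2.78 and 3.22 CPM untreated, 1.32 and 2.20 CPM with LPS, and 2.21 and 2.29 CPM with GCM.

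In another pair, 265 bp apart on chromosome 1, the GCM mean lay above the LPS mean in the first region and below it in the second. The region at chr1:151894823-151895134 stood at 4.27 ± 1.1 CPM (SD, n = 2) untreated, 2.60 ± 0.208 CPM with LPS and 3.03 ± 0.464 CPM with GCM. Its neighbour at chr1:151895400-151895610 stood at 3.18 ± 0.451, 1.68 ± 0.0669 and 1.27 ± 0.406 CPM. Neither difference between GCM and LPS passed the test (adjusted p = 0.621 and 0.659, edgeR). The other 3 of the 5 closest pairs, on chromosomes 2, 3 and 8, had lower means after both stimuli in all 6 of their regions.

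Every assembled chromosome in the table held some of these regions. Per 100 counted regions there were 2.65 on chromosome 14, the highest share, 1.56 on chromosome 12 and 1.14 on chromosome X, the lowest, with 23 regions. Median log2 changes per chromosome ran from -0.80 to -0.62 with LPS and from -0.73 to -0.58 with GCM. Lower levels on each of the 21 chromosomes follow from how the regions were chosen.

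The nearest counted neighbours outside the set were not chosen by the hotspot rule, but their values come from the same libraries. Replicates differed beyond counting error in sums per chromosome, so the neighbours' values may not be independent of the choice. This was not tested. There were 2744 distinct neighbours, of which 2676 were tested and 1381 had hotspots in all 6 lists. Their median log2 change was -0.10 with LPS and -0.08 with GCM, beside -0.00 over all tested regions in both comparisons. With LPS 138 (5.16%) were called lower, beside 3.14% of all, and 90 (3.36%) higher, beside 6.71% of all. With GCM 8 (0.299%) were called lower, beside 0.231% of all, and 15 (0.561%) higher, beside 1.34% of all. The medians of the neighbours lay much nearer to 0 than those of the untreated-only regions, and no test was made of the neighbours as a list.

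Distance made no steady difference to the neighbours. With LPS their median log2 change was -0.12 at up to 1 kb, -0.06 at 1 to 5 kb, -0.06 at 5 to 20 kb, -0.18 at 20 to 100 kb and -0.11 beyond. With GCM the medians ran from -0.12 to -0.06 over the same classes. Neighbours with hotspots in all 6 lists had medians of -0.11 with LPS and -0.08 with GCM, beside -0.03 and -0.01 for all such regions. The LPS median of all neighbours was -0.13 without the first LPS library and -0.06 without the second. With whole-library totals it was -0.01 beside 0.09 for all tested regions, and the GCM median was -0.07 beside 0.03.

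**Figure D5:**
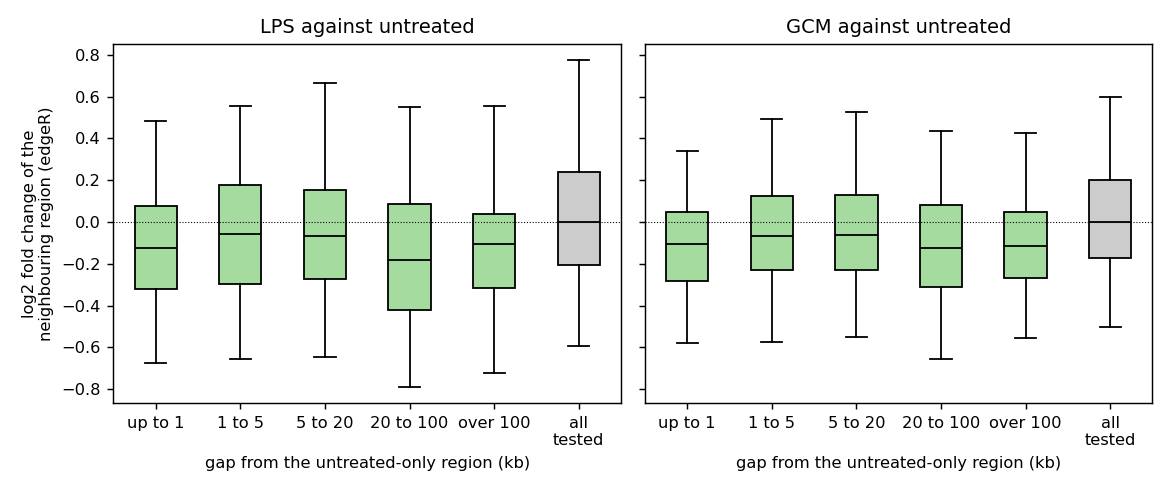
Log2 fold change (edgeR; vertical axis) of the counted regions nearest to untreated-only regions, by gap in kb, with LPS (left) and GCM (right), beside all tested regions (grey). Boxes span the quartiles with the median as a line and whiskers reach the 5th and 95th percentiles; medians of neighbours lie between -0.18 and -0.06, while the grey medians lie at 0.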

How the data were processed

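The data were 6 DNase I sequencing libraries of rat microglia in 3 groups of 2 cultures. Nuclei were digested for 10 min and 3 DNase I concentrations were combined, per the labels. Per the submitters' processing notes, the tools were Bowtie 1.1.2, cutadapt 1.8.3, Picard 1.95, SAMtools, edgeR and DiffBind, on build rn5; their order and settings are not given in the sources used here. The authors deposited raw counts per region with the region's position and length. Tables of the authors' 2 comparisons give each library's CPM, a log2 fold change, an average log2 CPM, a p-value, an adjusted p-value and a score (the likelihood ratio), per the file headers. The authors' hotspot lists give an interval and a score of undefined scale, which served only to rank hotspots of one list; a false discovery rate of 0.01 stands in the names of the lists. In the authors' tables, 12 further per-library columns were not used.

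Regions were chosen by overlap of at least 1 bp with the hotspot lists. The choice of regions, lists and tests was made with earlier results of these data known. Counts as deposited were tested in edgeR 4.0.16 (R 4.3.3) with group means over all 6 libraries in 1 quasi-likelihood fit, the default filter with a minimum count of 10, TMM scaling, two-sided tests and Benjamini-Hochberg adjustment over 126284 regions, with a threshold of 0.05. SEs of log2 changes were derived from the F statistic (absolute change over root F). CPM in the text were computed from these counts, and whole-library totals were recovered from the authors' CPM. Outside density is the whole-library total minus counts in regions, over the 2.90 Gb up to the last counted region of each chromosome. Positions count the first base as 1 and include the last. Interval work used Python 3.11.15 with pandas 2.3.3 and numpy 2.4.6, and the scripts were tested on simulated data.

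Regions named were the 10 with the smallest larger p of both comparisons among those lower in all 4 stimulated libraries, the 5 with the highest untreated mean, the 5 in each direction that ranked first by p for GCM against LPS, the 3 with the largest positive log2 change for each stimulus, the 3 widest, and the 5 closest pairs under 2 kb apart. Alternatives were other scalings, filters and memberships, DESeq2 1.42.0, a block for replicate number and leaving out each library. Nearest genes, sequence motifs and marker genes were not analysed here. With 2 libraries per group and low counts, precision is limited by depth. The p-values reflect counting error together with a spread between these cultures that was estimated with information shared across regions.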

Additional observations from a re-analysis of the deposited data

How the results depend on the processing

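Numbers of calls moved with the processing. Median log2 changes stayed below 0 with LPS and with GCM, which follows from the choice, so no stability is read from their sign. Whole-library totals gave 211 regions lower with LPS and 43 with GCM, beside 0.543% and 0.0507% of all tested regions. They gave 22 lower with both, where 64 of all tested regions were lower with GCM. Between GCM and LPS they gave 1, beside 4468 lower and 961 higher with GCM than with LPS over all. The median GCM-to-LPS difference turned to -0.058. DESeq2 gave 0, 0 and 0 lower (smallest adjusted p 0.0563 with LPS and 0.681 with GCM; 377 and 283 at an unadjusted p under 0.05). DESeq2 size factors in edgeR, totals in regions, no filter and a minimum count of 20 each gave 1 region between GCM and LPS. Over all tested regions these settings gave 5793 to 6044 lower and 4797 to 4892 higher with GCM than with LPS. Leaving out 1 library gave 49 to 594 regions lower with LPS, 0 to 131 with GCM, 0 to 36 with both and 0 to 3 between the stimuli. Median log2 changes then ran from -0.87 to -0.57 with LPS, from -0.82 to -0.53 with GCM, and from -0.071 (without the second GCM library) to 0.12 between them. Neighbour medians ran from -0.13 to -0.058 with LPS and from -0.094 to -0.071 with GCM, and were -0.0060 and -0.066 with whole-library totals. The replicate block gave 690 and 256 regions lower with LPS and GCM, beside 3.99% and 0.604% of all tested regions. It gave 169 lower with both and 1 between the stimuli, beside 6974 lower and 5696 higher with GCM than with LPS over all. Same-numbered libraries hardly deviated together (r = 0.05, 0.11 and -0.00). Replicate differences per region were near counting error, so this r cannot show whether the numbers pair the cultures. The labels do not say what a replicate number marks, and the block is given as an alternative only. With both untreated libraries as 1 sample, chosen after seeing the data like the neighbours' alternatives, 67 were lower with GCM and 45 with both. Untreated hotspots at or above the median score of each list alone left 16 regions, of which 6, 2 and 2 were called, with a median gap of 395.5 bp. The cause of these shifts was not tested. Median counts were 11 to 24 per region and library.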
